A study of Homo sapiens with 6 samples.

Results

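Focal adhesion genes other than integrins were followed in MDA-MB-231 cells, an established human line from a triple-negative breast tumour, when the message of MYO10 (MYOSIN10 in the labels), a motor protein of filopodia, was lowered. The 43 members were a named list of scaffolds, adaptors, kinases and actin linkers, matched by gene symbol to the probe sets of a 1-colour Affymetrix expression array. Each probe set reads 1 stretch of a transcript with several short oligonucleotides. Of the 43, 41 had a probe set assigned to that gene alone and 39 passed the filter on dim signals, out of 14174 genes tested. EFS and LIMS1 had only dim probe sets, and CRK and FLNA were not analysed here.

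The 6 arrays came from 3 samples of cells that stably expressed MYOSIN10 shRNA, a short hairpin RNA, and 3 that stably expressed scramble shRNA. All grew in L-15 medium with serum, and biotin-labelled cRNA was made from total RNA by a 3' in vitro transcription kit. The labels used here do not state whether the cells were clones or pools, which hairpin sequence they carried, or whether samples 1 to 3 were separate cultures, so p-values reflect how far these samples differ from each other, and that spread may be technical. In such bulk RNA, fewer cells that express a gene and less RNA per cell cannot be told apart.

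Focal adhesions are the sites where integrins, bound to the matrix outside the cell, are tied to actin filaments inside it. Talins and kindlins bind integrin tails, vinculin and the LIM proteins strengthen the link to actin under tension, and the kinases FAK and SRC phosphorylate the scaffolds paxillin and CAS, which recruit CRK and DOCK1 to activate RAC. MYO10 is known to carry integrins to filopodial tips, where adhesions can form. In MDA-MB-231 cells this machinery supports spreading and migration.

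The arrays correlated with each other at 0.978 to 0.987 over 15 pairs. MYO10 itself had log2 signals of 11.57, 11.96 and 11.86 on the scramble arrays and 10.70, 11.39 and 10.64 on the MYOSIN10 shRNA arrays. All 3 MYOSIN10 shRNA values lay below all 3 scramble values, and the MYO10 message was at 54.2% of its level with scramble shRNA (log2 fold change -0.88 ± 0.18 SE; limma adjusted p = 0.0303). MYOSIN10 shRNA array 2 kept the most of it, and MYO10 was no longer called when scramble array 1 or 3 was left out (limma adjusted p = 0.0643 and 0.142), or MYOSIN10 shRNA array 1 or 3 (0.137 and 0.143). It was called in 10 of 18 alternatives. The call was also lost without the filter (limma adjusted p = 0.0821) and without the variance trend (0.243). The value shrank, uncalled, to -0.55 with the mean of its probe sets (limma adjusted p = 0.149) and to -0.58 without _s_at, _x_at and _a_at probe sets (0.139), and the probe set used here is of the _s_at type. The 6 markers fixed for the cell line, VIM, CD44, CAV2, MSN, ANXA1 and AXL, were bright on every array, between 13.38 and 14.90. Of 7 genes taken as low in it, PGR, FOXA1 and CDH1 were dim, while ESR1, ERBB2, EPCAM and GATA3 had signals between 6.62 and 10.38. For some of these markers the groups did not overlap, as was so for 19.8% of all genes tested. CAV2 read 13.74, 13.72 and 13.73 with scramble shRNA and 13.39, 13.57 and 13.38 with MYOSIN10 shRNA, so that every MYOSIN10 shRNA array was lower. EPCAM read 8.09, 8.55 and 7.34 against 8.90, 8.74 and 8.65, so that every MYOSIN10 shRNA array was higher, as it was for the dim CDH1, which reached at most 5.32. Of 9 markers of immune, endothelial, stromal and muscle cells, PTPRC and VWF were dim, CD68 was not analysed here, and the other 6 lay between 4.46 and 8.23. Their part in the results was not tested.

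Here a signal is log2 of the deposited signal, returned to the linear scale, plus 16, which understates the fold change of dim genes. A positive log2 fold change means a higher signal with MYOSIN10 shRNA. Calls were made in limma, where the Benjamini-Hochberg adjusted p over all 14174 genes had to be under 0.05.

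Of the 39 members tested, NEDD9 and TNS3 rose, 0 fell and 37 did not pass. The 2 calls were 5.13% of the members, against 1.62% of all genes tested called in either direction, 1.16% higher and 0.459% lower. An unadjusted p under 0.05 was found for 8 members (20.5%, against 14.9% of all genes). Of these, NEDD9, TNS3, SRC and PARVA had positive values (10.3%, against 8.49% of all genes), and LPP, CSRP1, TES and VCL negative ones (10.3%, against 6.39%). The groups did not overlap for 10 members (25.6%, against 19.8% of all genes), 4 higher (10.3%, against 11.2%) and 6 lower (15.4%, against 8.56%). The median log2 fold change was -0.033 over the members and 0.0093 over all genes. Of the 37 members that did not pass, 36 had a log2 fold change smaller than 0.5 in size, and the 95% interval lay within -0.5 and 0.5 for 22 and within -1 and 1 for 34.

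**Figure D1:**
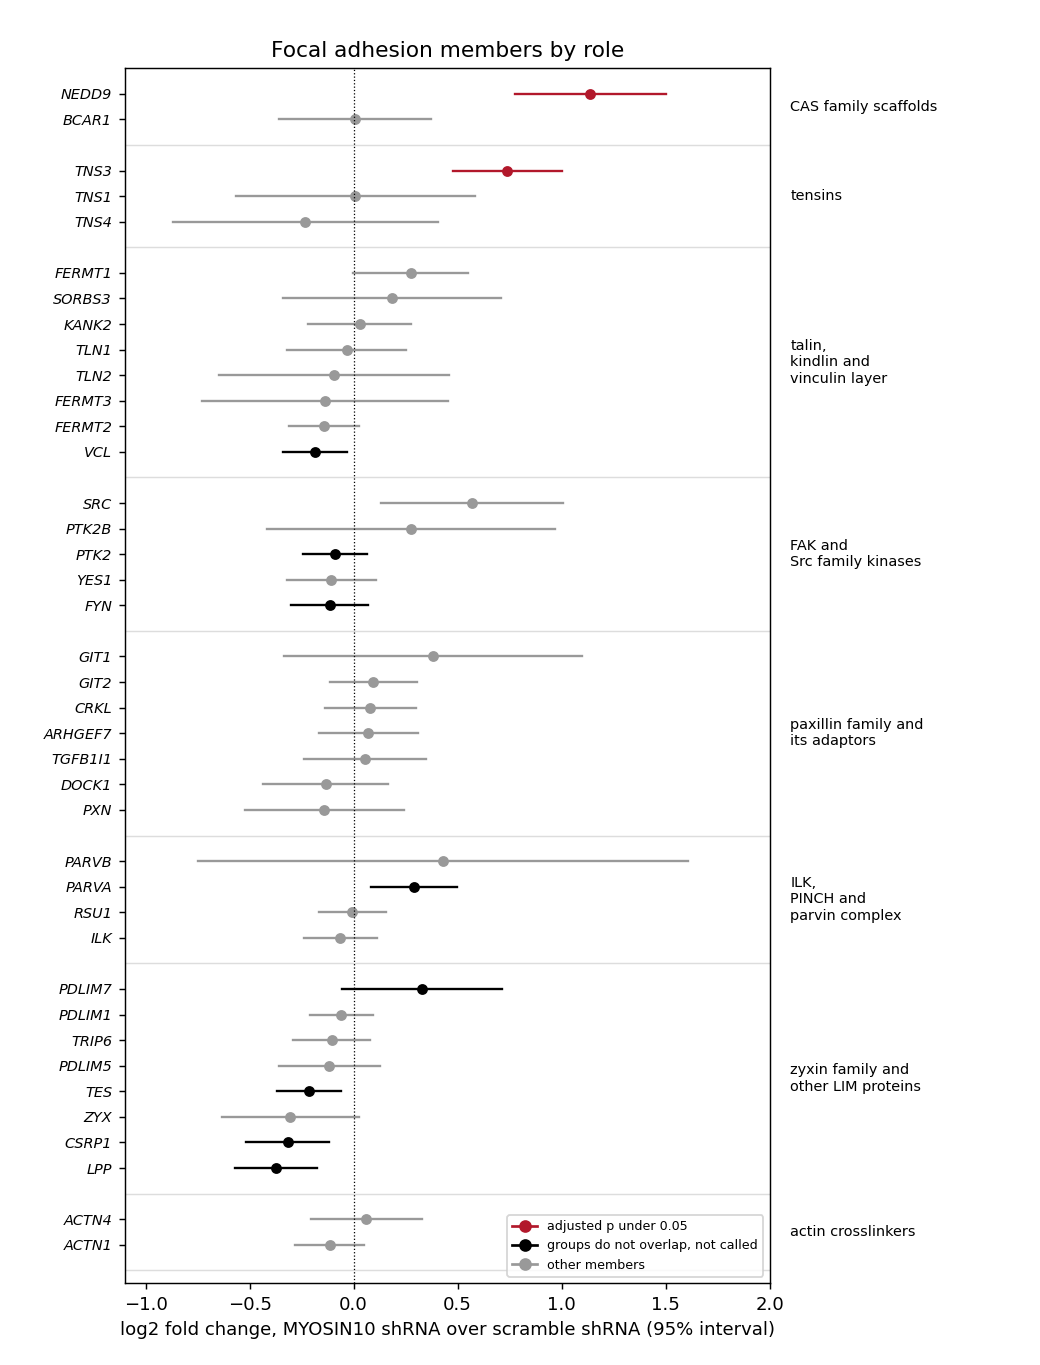
Log2 fold change of the 39 members tested, MYOSIN10 shRNA over scramble shRNA, by role. Points are limma estimates, lines their 95% intervals, and red, black and grey mark called members, uncalled members whose groups do not overlap, and the others. NEDD9 at 1.14 and TNS3 at 0.74 stand to the right, and 7 of the 8 LIM proteins lie to the left of 0.

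The CAS family comprises docking proteins that carry an SH3 domain and a long substrate region for SRC kinases. NEDD9, also called HEF1 or CAS-L, is the member best known for promoting migration and invasion of tumour cells. Its log2 signal was 8.90, 9.54 and 8.81 on the scramble arrays and 10.20, 10.23 and 10.23 on the MYOSIN10 shRNA arrays. The MYOSIN10 shRNA arrays were nearly level with each other, and scramble array 2 was the highest of its group but still below them. NEDD9 rose 2.20-fold (log2 fold change 1.14 ± 0.17 SE, 95% interval 0.77 to 1.502; limma adjusted p = 0.00611).

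A second NEDD9 probe set, dimmer, showed the same difference. It read 6.93, 7.03 and 7.24 on the scramble arrays and 8.33, 8.07 and 8.28 on the MYOSIN10 shRNA arrays, a log2 fold change of 1.16 ± 0.17 (SE; limma adjusted p = 0.0072 over all kept probe sets). The other 2 kept probe sets lay close to the lower limit of the filter, and they gave -0.17 ± 0.28 and 0.58 ± 0.48 (SE), with overlapping groups. Averaging all 4 kept probe sets brought the NEDD9 value to 0.68, which was not called (limma adjusted p = 0.125).

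BCAR1, the founding CAS protein (p130Cas), showed no difference of that size. Its signals were 8.25, 8.52 and 8.81 with scramble shRNA and 8.497, 8.384 and 8.719 with MYOSIN10 shRNA. The groups overlapped fully, and the 95% interval of its log2 fold change, -0.36 to 0.37, lay below that of NEDD9. The difference between these 2 genes was not tested. Both probe sets of EFS, the third CAS scaffold listed, were dim on at least 4 of the 6 arrays, so that no test was made.

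The bases before the start sites listed for NEDD9 and TNS3 are shown because these are the 2 members that rose. RefSeq, on build GRCh38.p14, lists 3 starts for each gene, and probe sets at the 3' end do not tell which start a message used. The first line below is the 250 bases before the most downstream NEDD9 start (chr6:11232669-11232918, minus strand), the second those before its most upstream start (chr6:11382349-11382598, minus strand), and the last those before a TNS3 start (chr7:47582112-47582361, minus strand). Capitals mark matches to GGGCGG, the core of the SP1 motif, on either strand.
NEDD9 downstream start: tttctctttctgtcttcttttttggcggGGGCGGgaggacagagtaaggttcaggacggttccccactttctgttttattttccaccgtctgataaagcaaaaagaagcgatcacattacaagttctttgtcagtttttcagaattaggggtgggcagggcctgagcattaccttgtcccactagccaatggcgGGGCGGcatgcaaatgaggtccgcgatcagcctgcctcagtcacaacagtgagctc
NEDD9 upstream start: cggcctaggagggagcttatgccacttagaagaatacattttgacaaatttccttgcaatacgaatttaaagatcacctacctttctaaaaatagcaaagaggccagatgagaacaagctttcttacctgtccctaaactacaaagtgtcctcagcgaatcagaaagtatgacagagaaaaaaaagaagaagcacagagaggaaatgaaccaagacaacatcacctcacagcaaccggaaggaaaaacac
TNS3 start: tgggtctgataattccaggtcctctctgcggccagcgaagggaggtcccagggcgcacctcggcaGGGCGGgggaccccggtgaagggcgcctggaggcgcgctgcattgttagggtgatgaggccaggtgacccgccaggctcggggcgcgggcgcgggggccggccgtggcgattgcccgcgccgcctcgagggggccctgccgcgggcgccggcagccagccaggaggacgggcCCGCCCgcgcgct

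Of 4 motifs searched in these windows on both strands, GGGCGG alone matched the starts of NEDD9 and TNS3. It matched 2 times before the downstream NEDD9 start and 2 times before the TNS3 start shown, and was in 42.6% of all 35116 promoter windows of that length. Counted by gene, 70.6% of the 11373 tested genes with a window had it in at least 1 window. The other motifs were the CArG box of the factor SRF, TGANTCA for AP-1 and GGAATG for TEAD factors, which had no match before the 3 listed starts of either gene. RefSeq promoter windows were found for 36 of the 43 members, 77 windows in all, and GGGCGG was in 55.8% of those windows. By gene, 32 of the 36 members had it in at least 1 window. The median share of G and C was 66.4% in the member windows and 58.0% in all windows.

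Tensins link the tails of beta integrins to actin, and TNS3 has an SH2 domain that binds phosphorylated scaffolds such as CAS. TNS3 read 10.37, 10.66 and 10.56 on the scramble arrays and 11.45, 11.03 and 11.33 on the MYOSIN10 shRNA arrays. MYOSIN10 shRNA array 2, which kept the most MYO10, was the lowest of its group, and it was still above every scramble array. Scramble array 2, which had the most MYO10 among the scramble arrays, was the highest of them in TNS3. A relation between TNS3 and the level of MYO10 was not tested. TNS3 rose 1.67-fold (log2 fold change 0.74 ± 0.12 SE, 95% interval 0.48 to 1.00; limma adjusted p = 0.00972). TNS3 had no other kept probe set. Its call was lost when scramble array 1 or 3 was left out (limma adjusted p = 0.0673 and 0.0554), or MYOSIN10 shRNA array 1 or 3 (0.0664 and 0.0635), while its value stayed between 0.65 and 0.92 in 18 alternatives.

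TNS1 read 6.82, 6.50 and 6.90 with scramble shRNA and 6.82, 6.34 and 7.08 with MYOSIN10 shRNA, so that its groups overlapped. TNS4, a short tensin that lacks the actin-binding end, was also low (6.73 ± 0.45 and 6.50 ± 0.28, SD, n = 3 each). A dimmer TNS4 probe set gave 1.16 ± 0.38 (SE; limma adjusted p = 0.203 over all kept probe sets), but it passed the filter on 3 MYOSIN10 shRNA arrays and 0 scramble arrays, so a difference was a condition of its being kept. TNS3 was thus the single tensin called in limma.

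**Figure D2:**
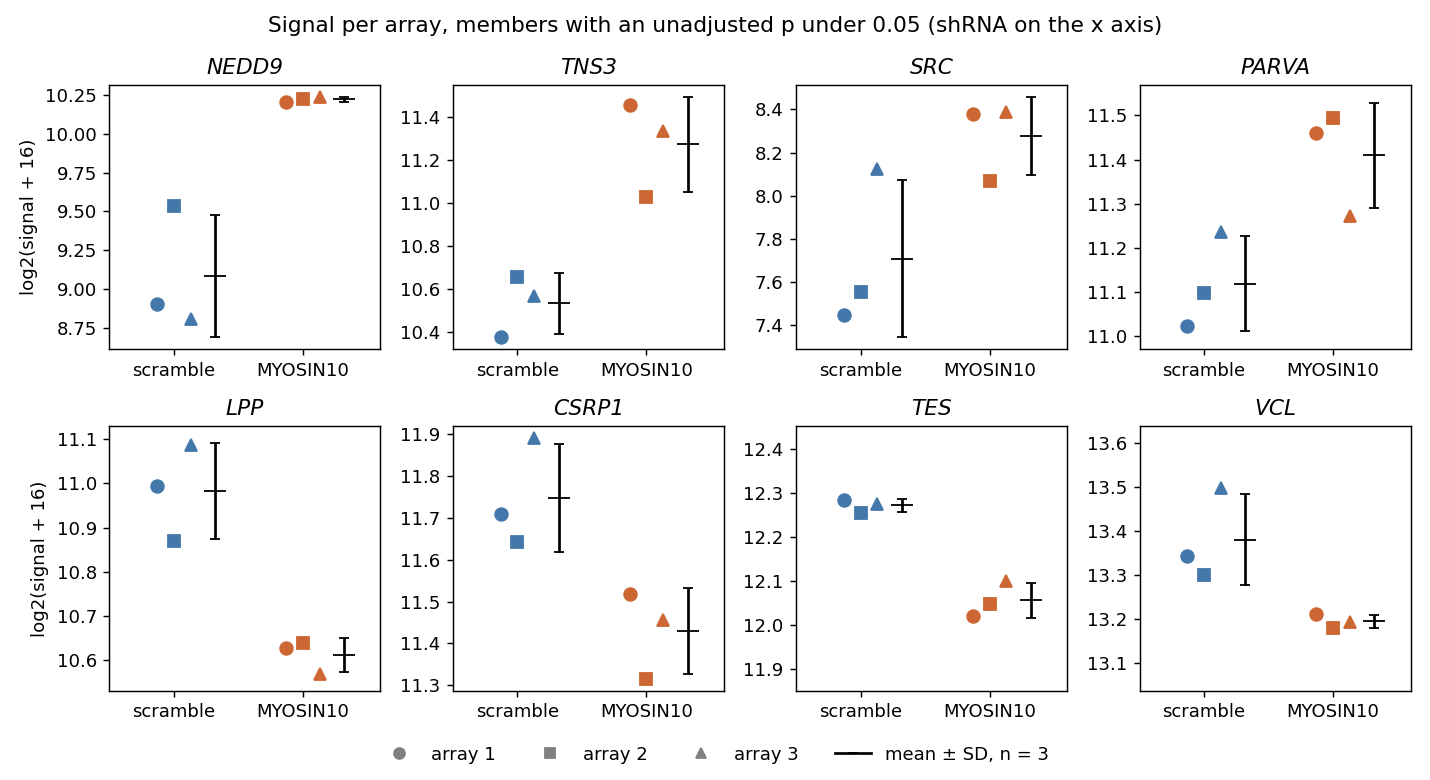
Log2 signal on each of the 6 arrays for the 8 members with an unadjusted p under 0.05. Symbols give the array number, and bars the mean and SD of 3 arrays; y axes differ between genes and do not start at 0. NEDD9, TNS3 and PARVA are higher and LPP, CSRP1, TES and VCL lower on every MYOSIN10 shRNA array, while SRC overlaps.

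FAK and the SRC family relay adhesion signals, and 0 of 5 passed in limma, with 1, SRC, at an unadjusted p under 0.05. PTK2, which encodes FAK, read 12.23, 12.27 and 12.20 with scramble shRNA and 12.10, 12.18 and 12.16 with MYOSIN10 shRNA. The groups did not overlap, yet the log2 fold change was only -0.089, with a 95% interval of -0.24 to 0.066 (limma adjusted p = 0.619). The 3 other kept PTK2 probe sets also had negative values.

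SRC, the kinase that pairs with FAK on CAS and paxillin, read 7.45, 7.55 and 8.13 on the scramble arrays and 8.38, 8.07 and 8.39 on the MYOSIN10 shRNA arrays. Scramble array 3 overlapped with MYOSIN10 shRNA array 2. The log2 fold change was 0.57 ± 0.20 (SE; limma adjusted p = 0.203), and a dimmer kept probe set gave -0.11 ± 0.41 (SE).

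FYN, a close relative of SRC, read 10.91, 10.78 and 10.89 with scramble shRNA and 10.76, 10.74 and 10.73 with MYOSIN10 shRNA. Its groups did not overlap, but the difference of -0.12 was not called (limma adjusted p = 0.579), and the next brightest probe set stood at -0.31 ± 0.13 (SE). YES1, another SRC relative, read 12.11, 12.22 and 11.94 against 11.996, 12.118 and 11.830, with overlap. PTK2B, which encodes the FAK relative PYK2, was low and variable (6.28 ± 0.57 and 6.55 ± 0.055, SD, n = 3 each).

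In the paxillin group, which joins the kinases to RAC and to the GIT and PIX proteins, 0 of 7 tested members passed in limma and 0 had an unadjusted p under 0.05. Among them 5 had positive and 2 negative values, and all groups overlapped. Paxillin itself, PXN, read 10.00, 10.39 and 10.55 with scramble shRNA and 10.33, 10.41 and 9.78 with MYOSIN10 shRNA. Its relative TGFB1I1 (HIC-5), which also shuttles to the nucleus, stood at 11.65, 11.43 and 11.60 against 11.80, 11.26 and 11.79. In TGFB1I1 the arrays numbered 2 were the lowest of both groups.

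The adaptor CRKL, which binds phosphorylated CAS and paxillin, read 11.04, 10.96 and 11.23 with scramble shRNA and 11.13, 11.05 and 11.30 with MYOSIN10 shRNA. Its 95% interval was -0.14 to 0.30. ARHGEF7, which encodes beta-PIX, an exchange factor for RAC and CDC42, and its partner GIT2 had differences of 0.072 and 0.095, and GIT1, dimmer, one of 0.38 ± 0.33 (SE).

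DOCK1, the RAC exchange factor recruited through CRK, had a difference of -0.13 ± 0.14 (SE) at its brightest probe set. The other 3 kept DOCK1 probe sets were all more negative, and 2 of these did not overlap. The first of them read 8.48, 8.25 and 8.54 on the scramble arrays and 8.003, 7.266 and 7.809 on the MYOSIN10 shRNA arrays, a log2 fold change of -0.73 ± 0.19 (SE; limma adjusted p = 0.106 over all kept probe sets). The second stood at -0.34 ± 0.16 (SE; limma adjusted p = 0.401). No DOCK1 probe set was called.

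Talin, kindlin and vinculin genes form the layer that activates integrins and carries force, and 0 of 8 passed in limma, with a median of -0.063 and 1, VCL, at an unadjusted p under 0.05. Vinculin, VCL, read 13.34, 13.30 and 13.50 on the scramble arrays and 13.21, 13.18 and 13.19 on the MYOSIN10 shRNA arrays. All MYOSIN10 shRNA arrays were lower, by a mean of only 0.19 (95% interval of the log2 fold change -0.34 to -0.030; limma adjusted p = 0.246). Kindlin-2, FERMT2, read 12.66, 12.78 and 12.77 against 12.68, 12.50 and 12.61, a difference of -0.14 ± 0.076 (SE), and scramble array 1 overlapped. Kindlin-1, FERMT1, went the other way at 0.27 ± 0.13 (SE; limma adjusted p = 0.341), also with overlap.

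The talins TLN1 and TLN2 stood at -0.033 and -0.093, KANK2, which binds talin and captures microtubules around adhesions, at 0.029, and the vinculin-binding SORBS3 (vinexin) at 0.18. FERMT3, the kindlin of blood cells, was low, with 6.999 ± 0.378 and 6.86 ± 0.36 (SD, n = 3 each). None of these 5 had separated groups.

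The complex of integrin-linked kinase (ILK, a pseudokinase), PINCH and parvin sits under beta integrin tails, and 0 of its 4 tested members passed in limma, with 1, PARVA, at an unadjusted p under 0.05. Alpha-parvin, PARVA, which binds both ILK and actin, read 11.02, 11.10 and 11.24 with scramble shRNA and 11.46, 11.49 and 11.27 with MYOSIN10 shRNA. Every MYOSIN10 shRNA array was higher, by 0.29 ± 0.094 (SE; limma adjusted p = 0.16). Of its 6 other kept probe sets, 5 shared the sign, and 2 of these 5 had groups that did not overlap, at 0.20 and 0.52. No PARVA probe set was called.

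ILK differed by -0.065 (95% interval -0.24 to 0.11) and RSU1, the PINCH-binding Ras suppressor, by -0.0060 (95% interval -0.17 to 0.16). RSU1 read 12.38, 12.33 and 12.38 with scramble shRNA and 12.44, 12.26 and 12.37 with MYOSIN10 shRNA. PARVB was close to the lower limit of the signal, with scramble values from 4.45 to 6.42 where a linear signal of 0 would give 4. LIMS1, which encodes PINCH1, had 3 dim probe sets of its own. The annotation also assigns 2 bright probe sets jointly to LIMS1 and its near-identical copies LIMS3 or LIMS4, at 0.26 ± 0.10 and 0.12 ± 0.11 (SE; limma adjusted p = 0.303 and 0.69 over all kept probe sets), and the array cannot tell these copies apart.

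The zyxin family and other LIM proteins, which bind stretched or bundled actin at adhesions and stress fibres, showed mostly small negative values. Of 8 members 0 passed in limma and 3 had an unadjusted p under 0.05, which 14.9% of all genes had. In all 7 were negative and 1 positive, with a median of -0.17, and over all genes 48.2% had a negative value. The groups did not overlap for 3 negative members, LPP, CSRP1 and TES, and for the positive one, PDLIM7, against 8.56% of all genes lower and 11.2% higher without overlap. With the mean of a gene's kept probe sets PDLIM5 turned positive and PDLIM7 negative, and leaving out probe sets that can match several transcripts left 6 members, 5 of them negative. Under the other 16 of 18 alternatives, 7 of 8 were negative.

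LPP, a zyxin relative, came closest to a call. It read 10.99, 10.87 and 11.09 on the scramble arrays and 10.63, 10.64 and 10.57 on the MYOSIN10 shRNA arrays. The 2 ranges were well apart, and the MYOSIN10 shRNA arrays stood at 77.2% of the scramble level (log2 fold change -0.37 ± 0.090 SE, 95% interval -0.57 to -0.18; limma adjusted p = 0.0665). LPP has 7 other kept probe sets, of which 6 were negative. The brightest of them read 10.82, 10.65 and 10.89 against 10.33, 10.55 and 10.28, a log2 fold change of -0.41 ± 0.11 (SE). The positive one, at 1.29, was near the lower limit of the signal and passed the filter on 3 MYOSIN10 shRNA arrays and 0 scramble arrays. LPP passed in 4 of 18 alternatives. They include the fits without scramble array 2 (log2 fold change -0.43, limma adjusted p = 0.0132) and without both arrays numbered 2 (-0.44, limma adjusted p = 0.00901). Over all genes these 2 fits called 964 and 1224, against 229 as reported. With the mean of its probe sets LPP stood at -0.19 and was not called (limma adjusted p = 0.545). It was not called without the variance trend either (limma adjusted p = 0.23).

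CSRP1, a LIM protein that binds alpha-actinin and zyxin, read 11.71, 11.64 and 11.89 with scramble shRNA and 11.52, 11.32 and 11.46 with MYOSIN10 shRNA. It stood at 80.3% of the scramble level without overlap (log2 fold change -0.32 ± 0.092 SE; limma adjusted p = 0.118), and it too was called without scramble array 2 (-0.37; 0.0354) and without both arrays numbered 2 (-0.31; 0.045).

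TES (testin), a LIM protein that binds zyxin and MENA, varied little within each group. It read 12.28, 12.25 and 12.28 on the scramble arrays and 12.02, 12.05 and 12.10 on the MYOSIN10 shRNA arrays, a log2 fold change of -0.22 ± 0.070 (SE; limma adjusted p = 0.164). Both other kept TES probe sets were also lower on every MYOSIN10 shRNA array, at -0.31 ± 0.12 and -0.71 ± 0.26 (SE). ZYX, which encodes zyxin, read 8.96, 8.94 and 8.85 against 8.66, 8.85 and 8.33, and its groups overlapped by a narrow margin (log2 fold change -0.30 ± 0.15 SE; limma adjusted p = 0.379).

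TRIP6, PDLIM1 and PDLIM5, of which the last 2 hold LIM proteins to alpha-actinin through a PDZ domain, differed by -0.10, -0.060 and -0.12. PDLIM1 read 12.58, 12.65 and 12.70 with scramble shRNA and 12.59, 12.56 and 12.60 with MYOSIN10 shRNA. PDLIM7 (enigma) was the positive one, at 7.33, 7.35 and 7.32 against 7.63, 7.52 and 7.83, a log2 fold change of 0.33 ± 0.18 (SE; limma adjusted p = 0.419). Of the 6 other kept PDLIM7 probe sets, 4 shared its sign.

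LPP and TES are also 2 of the members whose promoter windows hold a CArG box, the site of SRF, a factor known to drive cytoskeletal genes when actin is polymerised. The lines below are the 250 bases before 1 of the 7 starts listed for LPP (chr3:188212462-188212711, plus strand) and 1 of the 2 listed for TES (chr7:116222703-116222952, plus strand), RefSeq, GRCh38.p14. Capitals mark the CArG box, at bases -183 to -174 in LPP and -242 to -233 in TES, counted back from -1 just before the start, and also matches to GGAATG or TGANTCA on either strand. In TES the CArG box and the first GGAATG overlap.
LPP start: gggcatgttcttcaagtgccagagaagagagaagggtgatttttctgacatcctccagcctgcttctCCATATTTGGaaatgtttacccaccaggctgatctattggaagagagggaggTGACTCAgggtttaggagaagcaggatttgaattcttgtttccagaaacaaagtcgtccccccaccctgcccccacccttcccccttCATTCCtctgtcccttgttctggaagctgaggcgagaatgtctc
TES start: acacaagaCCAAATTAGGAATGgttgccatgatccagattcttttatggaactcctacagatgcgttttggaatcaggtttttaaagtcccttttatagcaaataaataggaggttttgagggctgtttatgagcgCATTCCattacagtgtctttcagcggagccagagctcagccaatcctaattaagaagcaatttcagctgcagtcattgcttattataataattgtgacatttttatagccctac

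The CArG box was in 7.79% of the 77 member windows and in 1.16% of all 35116 windows of that length. The 6 members with a match were ACTN1, FLNA, LPP, RSU1, TES and TGFB1I1. The 5 of them measured did not share a direction: LPP, TES, ACTN1 and RSU1 were negative, at -0.37, -0.22, -0.12 and -0.0060, and TGFB1I1 was positive, at 0.056. CSRP1 and VCL, which were also lower without overlap, had no match in their windows. GGAATG was in 10 of the 77 member windows and 11.9% of all windows, and TGANTCA in 11.7% of member windows and 6.57% of all.

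Actin crosslinkers anchor the filament bundles that end at adhesions, and 0 of the 2 tested passed in limma or had an unadjusted p under 0.05. ACTN1, the non-muscle alpha-actinin most abundant along stress fibres, read 14.36, 14.58 and 14.62 with scramble shRNA and 14.38, 14.38 and 14.46 with MYOSIN10 shRNA, with overlap at scramble array 1 (log2 fold change -0.12 ± 0.076 SE). Its 2 other kept probe sets were negative too. ACTN4, its paralogue, read 10.39, 10.82 and 10.66 against 10.63, 10.86 and 10.56, and differed by 0.062 (95% interval -0.21 to 0.33).

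**Figure D3:**
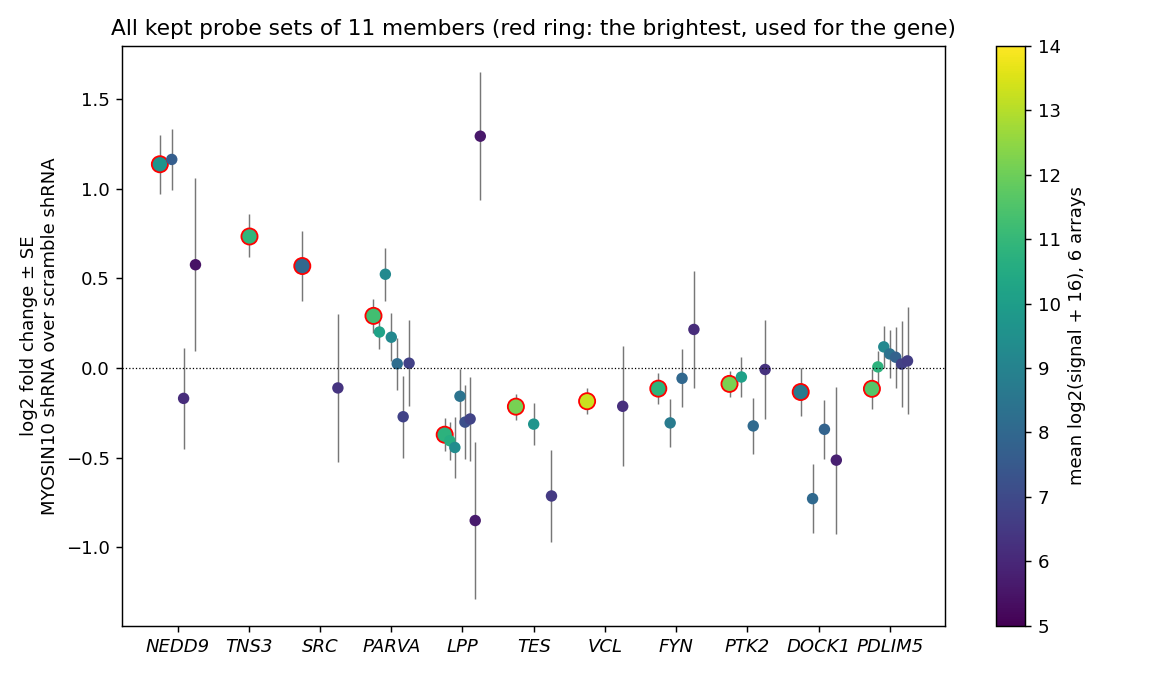
Log2 fold change ± SE of every kept probe set of 11 members, chosen after their values were seen, coloured by mean signal over 6 arrays; a red ring marks the brightest probe set, which stands for the gene. The 2 brightest NEDD9 probe sets lie together at 1.14 and 1.16, 7 of 8 LPP probe sets and all 3 TES probe sets are below 0, and the 6 dimmer PDLIM5 probe sets have the opposite sign to the brightest.

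Of the 39 members tested, 28 had more than 1 kept probe set, and in 19 of these the next brightest had the same sign as the brightest. Among the 8 members with an unadjusted p under 0.05, TNS3 and CSRP1 had a single kept probe set, the next brightest shared the sign for NEDD9, PARVA, LPP, TES and VCL, and it did not for SRC.

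Other genes of the same adhesion network were counted from a list of 65, of which 54 were tested. PAK2 and CSRP2 rose, 0 fell and 52 did not pass. The 2 calls were 3.7% of the list, against 1.62% of all genes, and 10 genes (18.5%, against 14.9%) had an unadjusted p under 0.05 in limma, 8 higher and 2 lower. PAK2, a kinase activated by RAC and CDC42 and brought to adhesions by beta-PIX, read 11.40, 11.82 and 11.43 on the scramble arrays and 12.39, 12.38 and 12.46 on the MYOSIN10 shRNA arrays (1.81-fold; limma adjusted p = 0.00277).

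CSRP2, the paralogue of CSRP1, read 9.98, 10.32 and 9.78 against 10.69, 10.67 and 10.87 (1.64-fold; limma adjusted p = 0.02). In NEDD9, TNS3, PAK2 and CSRP2 alike, scramble array 2 was the highest of its group and every MYOSIN10 shRNA array was above it. CSRP2 was not called when scramble array 1 or 3 was left out (limma adjusted p = 0.11 and 0.105), nor when MYOSIN10 shRNA array 1 or 3 was (0.0775 and 0.119). It also missed the threshold without the filter (limma adjusted p = 0.052), with the mean of its probe sets (0.0551) and without the variance trend (0.182), and passed in 10 of the 17 alternatives that tested it; the one without _s_at, _x_at and _a_at probe sets did not. PAK2 passed in 17 of 18, the exception being the fit without the variance trend (limma adjusted p = 0.12). The paralogues CSRP1 and CSRP2 thus had values of opposite sign, -0.32 and 0.71, of which the second was called. The difference between them was not tested.

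The next 3 genes of that list by p did not pass. They were FBLIM1 (migfilin), which joins filamin to kindlin-2, at 0.49 ± 0.14 (SE; limma adjusted p = 0.101), the LIM protein FHL2 at 0.42 ± 0.12 (0.113), and PTPN12, a phosphatase of CAS and paxillin, at -0.28 ± 0.083 (0.128). The groups of all 3 were separated. FBLIM1 was called without scramble array 2 (0.62; limma adjusted p = 0.0126) and FHL2 likewise (0.56; 0.00457). That fit called 964 of all genes, against 229 as reported.

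**Figure D4:**
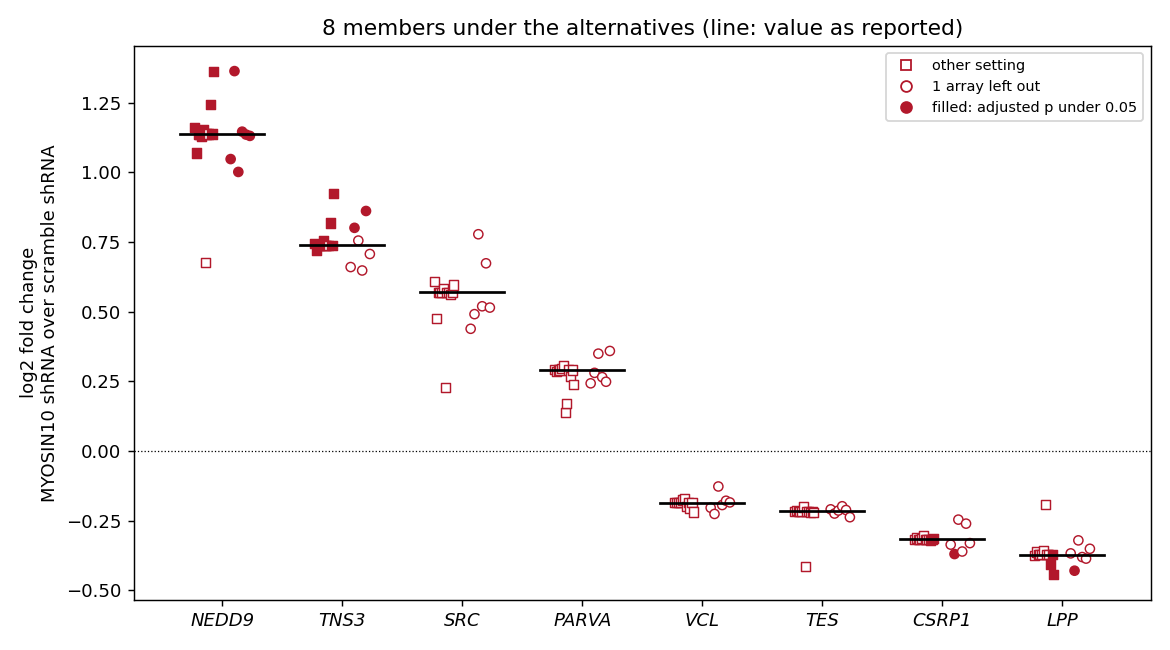
Log2 fold change of the 8 members with an unadjusted p under 0.05 under each alternative. Squares are other settings, circles single arrays left out, filled symbols an adjusted p under 0.05, and lines the values as reported. NEDD9 is filled in 16 of 18 alternatives, TNS3 in 13, LPP and CSRP1 in 4 each, and the other 4 in none.

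NEDD9 was called without any single array, with values between 1.00 and 1.36, and in 16 of 18 alternatives in all. Without scramble array 2, 4 members were called, NEDD9 and TNS3 higher and LPP and CSRP1 lower, and the same 4 were called without both arrays numbered 2. Calls over all 14174 genes also rose in these fits, to 964 and 1224, against 229 as reported. Without scramble array 1 or 3, or MYOSIN10 shRNA array 1 or 3, the call of NEDD9 alone was left. Of the 39 members, 21 had the same sign in every alternative and 18 turned sign in at least 1, while 35 of the 37 that did not pass were called in none.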

How the data were processed

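The deposited values were log2 signals of 54675 probe sets on 6 arrays. The submitters' processing notes name MAS5, which summarises each array on its own and scales it to a common level, so a change of total RNA per cell would not show. Its version and settings: not given in the sources used here. That the authors' scale is log2 was read from the deposited values: after 2 is raised to each, all 6 arrays had a trimmed mean (2% off at either end) of 500.07 to 500.08.

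On the linear scale 16 was added to each value before log2 was taken. Probe sets at or above their array's 40th percentile (5.56 to 5.66) on at least 3 arrays were kept (33370). Symbols of the 41097 single-symbol probe sets were updated by Entrez number through RefSeq (GRCh38.p14), and the brightest kept probe set stood for a gene. Both groups entered a limma fit (version 3.58.1, R 4.3.3; lmFit, then eBayes with a variance trend; two-sided, no covariate), with Benjamini-Hochberg adjustment over all 14174 genes, or all kept probe sets where named. The steps were tested on simulated data. Alternatives numbered 18. The number of arrays limits precision, and no read depth applies. Figures used matplotlib 3.10.9.

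The members, lists, tests and alternatives were chosen with earlier results of these data known. All members are accounted for; array values are given for members called, at an unadjusted p under 0.05, without overlap or among the 2 brightest of their role, and for MYO10. From the wider list the genes with the 6 smallest p were to be named, of which 1 is not reported here, and array values are given for the 2 called. Genes missing from the probe annotation used are not analysed here.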

Additional observations from a re-analysis of the deposited data

How the results depend on the processing

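NEDD9 and TNS3 kept a positive sign in all 18 alternatives. Of the focal adhesion members, 2 were called as reported, 1 when probe sets were averaged per gene (TNS3), 0 without the variance trend (8 at an unadjusted p under 0.05 in limma), and 4 with array weights or without both arrays numbered 2; leaving out single arrays gave 1 to 4. The wider adhesion list had 2 calls as reported, 1 without the filter, with the mean of probe sets or without _s_at, _x_at and _a_at probe sets, 0 without the variance trend (8 at an unadjusted p under 0.05 in limma), 5 with array weights and 6 without both arrays numbered 2, with 1 to 5 when single arrays were left out. Over all genes 229 were called, against 126 without the filter, 111 with the mean of probe sets, 7 without the variance trend, 791 with array weights and 1224 without both arrays numbered 2, with 66 to 964 when single arrays were left out (964 without scramble array 2). The members' median of -0.033 was 0.026 without _s_at, _x_at and _a_at probe sets, where 34 members were tested, and -0.055 to 0.017 when single arrays were left out, the highest without scramble array 3. Fewer arrays or other genes enter some of these fits; otherwise the cause was not tested. The 5 dimmest members tested, PARVB, PTK2B, TNS4, TNS1 and FERMT3, had a scramble mean of 5.23 to 6.999, and a small difference could not be resolved there.

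Deviations from the group means correlated at 0.059, 0.163 and 0.040 for arrays with the same number, 1 to 3, and at -0.111 to 0.066 for the others. The value of the arrays numbered 2 was the highest. Deviations sum to 0 over the arrays of a group, so a positive value has to be offset by negative ones. The negative values of the arrays numbered 2 with the other arrays thus add no further observation. Scramble array 1 correlated at 0.066 with MYOSIN10 shRNA array 3 and at 0.059 with array 1, so arrays 1 and 3 could not be told apart. These values do not settle whether samples of the same number were paired. With the number as a replicate block 4 members were called (NEDD9, TNS3, LPP and CSRP1), 611 genes in all and 3 of the wider list.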
